A study of Mus musculus with 7 samples.

Results

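The Ms4a genes of the myeloid and lymphoid lineages were examined in mouse spleens that had carried injected liver cells (hepatocytes) for 30 days. Rows of the deposited expression table were taken by symbol, Ms4a4a, Ms4a4b, Ms4a4c, Ms4a6b, Ms4a6c, Ms4a6d, Ms4a7 and Ms4a8a, and all 8 of the 8 symbols were found. They are 8 of the 21 rows whose symbol starts with Ms4a, in a table of 22173 genes. The list was chosen from the levels measured in these same libraries, so the differences between the groups of these 8 genes are given as a description. Counts of calls among them are printed beside those over all genes, and nothing is read from them. The sHA-X spleens (4 libraries) had been remodelled by repeated injections of the biomaterial sHA-X, as the labels name it. The PBS spleens (3 libraries) had received phosphate-buffered saline in its place. Both groups then received hepatocytes, so neither is an untouched spleen. The sources used here give no strain, sex or age. Nor do they state separate animals for the libraries, so a p-value measures only the spread between these libraries. Values are FPKM, that is, sequenced fragments scaled to transcript length and library size, and are given as mean ± SD with n = 4 for sHA-X and n = 3 for PBS.

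Ms4a genes encode small proteins that cross the cell membrane several times, sit at the surface or in internal membranes of blood cells, and associate with receptors of those cells. The best known members are CD20 (Ms4a1), the antibody target on B cells, and the beta chain of the high-affinity IgE receptor (Ms4a2) of mast cells and basophils. The spleen holds most of the cells that use the family, namely red pulp macrophages that clear old red blood cells, monocytes, T cells, natural killer cells and B cells. Among the 8 genes, Ms4a4a, Ms4a6d, Ms4a7 and Ms4a8a are known mainly from macrophages, Ms4a4c and Ms4a6c from monocytes and other myeloid cells, and Ms4a4b and Ms4a6b from lymphocytes.

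The libraries held between 29543963 and 37141978 reads, recovered from the FPKM values. Defining genes of spleen cells were present in every library, with Cd68 at 97.5 to 109 FPKM in sHA-X and 53.0 to 57.1 FPKM in PBS, and Cd3e at 22.1 to 27.9 FPKM in sHA-X and 29.2 to 34.9 FPKM in PBS. Some libraries also carried genes of other tissues. In sHA-X replicates 3 and 4 the summed level of 7 hepatocyte genes reached 704 and 722 FPKM, against 4.97 and 22.2 FPKM in the other sHA-X libraries and 3.04 to 8.53 FPKM in PBS. That of 8 skeletal muscle genes reached 203 FPKM in sHA-X replicate 2, and that of 11 acinar genes of the pancreas reached 1015 FPKM in PBS replicate 2. The part of these tissues in the differences described here was not tested. With the second libraries of both groups left out, each of the 8 genes kept the direction of its difference. The same held with sHA-X replicates 3 and 4 left out, a choice made after seeing the data, where the log2(FPKM + 1) difference was 2.20 for Ms4a6d, 1.21 for Ms4a7 and -0.41 for Ms4a4b.

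The macrophage genes of the family stood higher in sHA-X spleens, and the lymphocyte genes stood level or lower. By the ratio of means, Ms4a6d was 5.69 times its PBS level, Ms4a7 was 2.49 times, Ms4a4a was 2.01 times, Ms4a8a was 1.45 times and Ms4a6c was 1.40 times. Ms4a6b was 0.928 times, Ms4a4c was 0.844 times and Ms4a4b was 0.798 times its PBS level. For Ms4a6d, Ms4a7, Ms4a4a and Ms4a6c every sHA-X library lay above every PBS library, for Ms4a4c every sHA-X library lay below every PBS library, and for the other 3 genes the groups overlapped. Over all 11920 genes with a mean of at least 1 FPKM, 17.2% had every sHA-X library above every PBS library and 11.5% had every one below. All 8 genes passed that minimum. By limma, at an adjusted p under 0.05 over all genes, 4 of the 8 were called higher and 0 lower (2 lower at an unadjusted p under 0.05, and 0 lower by voom on the recovered reads), where 9.30% of all tested genes were called higher and 5.03% lower. Since the genes were chosen from this comparison, nothing is read from these counts. The median difference over the 8 genes was 0.44 on the log2(FPKM + 1) scale, and over all tested genes it was 0.03. In whole spleens, more or fewer cells of a type and more or less RNA per cell cannot be told apart.

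**Figure D1:**
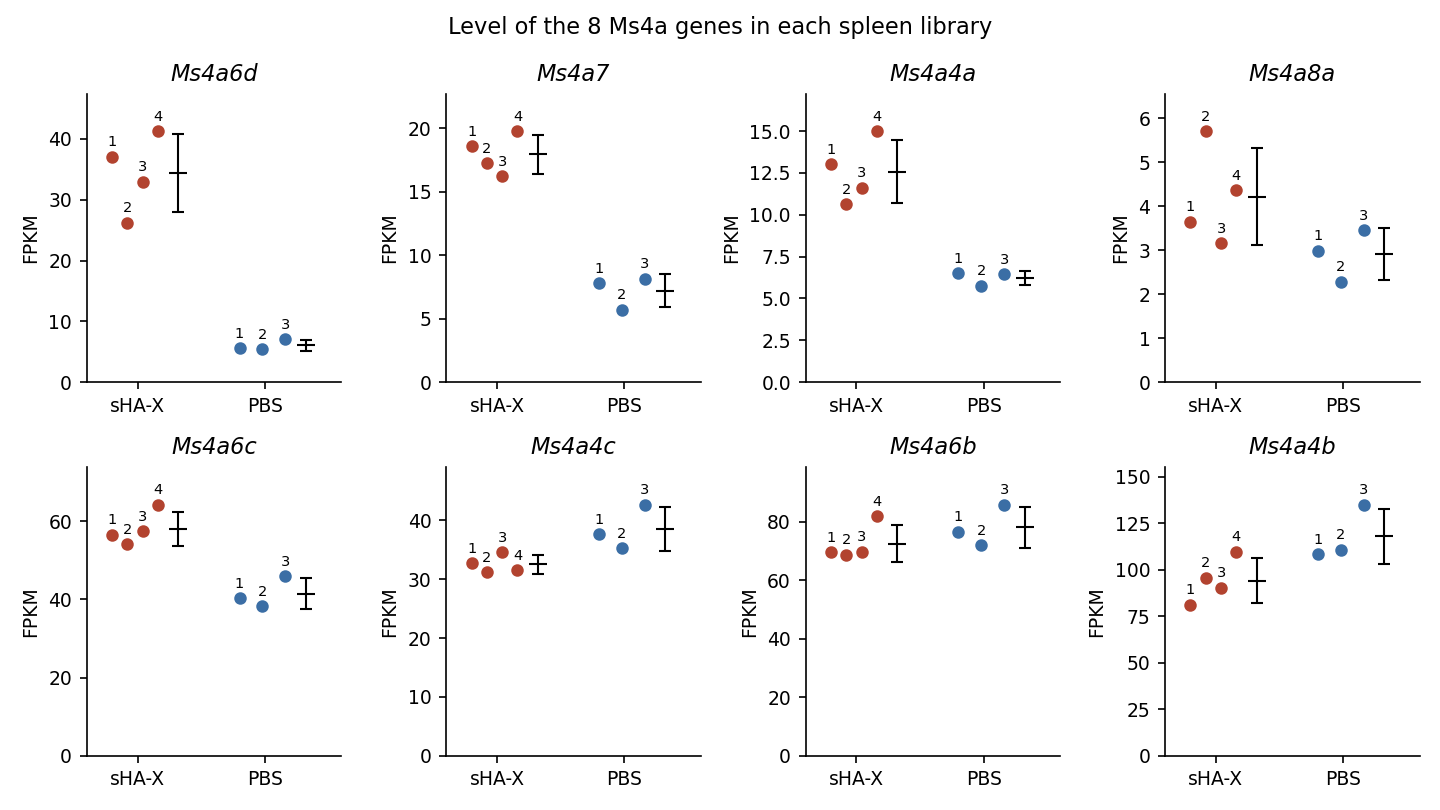
FPKM of each of the 8 Ms4a genes (vertical axes, each starting at 0) in the sHA-X libraries (red, left) and PBS libraries (blue, right), with library numbers beside the points and the mean ± SD as a black bar. The sHA-X points of Ms4a6d, Ms4a7, Ms4a4a and Ms4a6c all lie above the PBS points, those of Ms4a4c all lie below, and the groups overlap for the other 3 genes.

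The 8 genes lie within 1 stretch of 679 kb on chromosome 19 (chr19:10962289-11640851, GRCm38, the build that the submitters' processing notes name as mm10). The table holds 22 rows from this stretch, and all but 1 (Gm8369) have a symbol that starts with Ms4a. Gm8369 is itself close in sequence, with 91.1% coding identity to Ms4a4c and 89.7% to Ms4a4b, each over 369 aligned bases. Ms4a4a, Ms4a4c, Ms4a4b, Ms4a6c and Ms4a6b follow each other on the plus strand, and Ms4a8a, Ms4a7 and Ms4a6d are on the minus strand. In the GENCODE annotation each has 7 exons in its longest coding transcript, except Ms4a6b with 8. Within this stretch are pairs of close copies. The coding sequences of Ms4a4b and Ms4a4c were 91.7% identical over 678 aligned bases, those of Ms4a6b and Ms4a6c 85.8% over 642, those of Ms4a6b and Ms4a6d 81.2% over 730, and those of Ms4a6c and Ms4a6d 77.4% over 647.

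RefSeq promoter windows of 300 bases (250 before and 50 after a transcript's start, GRCm38.p6) were matched for 7 of the 8 genes, all but Ms4a6d, in 8 windows, since Ms4a7 has a pair of them. The close pair Ms4a6c (chr19:11469118-11469417, plus strand) and Ms4a6b (chr19:11518309-11518608, plus strand) is shown first because these close copies differ in how they stood between the groups. Capitals mark the element GAAANNGAA, the repeated core of an interferon-stimulated response element. It starts at position -133 in the Ms4a6c window and at position -206 in the Ms4a6b window, counted from the transcript start.
Ms4a6c: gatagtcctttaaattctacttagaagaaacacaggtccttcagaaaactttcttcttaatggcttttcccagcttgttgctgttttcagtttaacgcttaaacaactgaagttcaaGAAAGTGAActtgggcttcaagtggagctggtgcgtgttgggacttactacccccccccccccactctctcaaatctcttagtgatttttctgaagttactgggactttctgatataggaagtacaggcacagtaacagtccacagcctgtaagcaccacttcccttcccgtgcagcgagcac
Ms4a6b: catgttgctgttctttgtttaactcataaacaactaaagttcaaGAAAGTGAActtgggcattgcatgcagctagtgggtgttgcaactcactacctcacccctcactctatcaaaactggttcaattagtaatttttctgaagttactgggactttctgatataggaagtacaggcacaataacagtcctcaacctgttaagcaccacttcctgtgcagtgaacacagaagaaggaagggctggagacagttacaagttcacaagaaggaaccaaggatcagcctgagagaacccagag
Both windows hold the same letters of this element on the plus strand, and the windows are 85.3% identical over 225 aligned bases. On either strand, 8.56% of 32851 RefSeq promoter windows of this length hold GAAANNGAA.

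The other close pair, Ms4a4b (chr19:11443308-11443607, plus strand) and Ms4a4c (chr19:11407411-11407710, plus strand), is shown because both stood lower in sHA-X. Capitals mark GAGGAA, the core bound by the myeloid and lymphoid factor PU.1, at -64 in Ms4a4b and -61 in Ms4a4c, and in Ms4a4b also the TATA box letters TATAAA at -140 and the AP-1 site TGANTCA at 23.
Ms4a4b: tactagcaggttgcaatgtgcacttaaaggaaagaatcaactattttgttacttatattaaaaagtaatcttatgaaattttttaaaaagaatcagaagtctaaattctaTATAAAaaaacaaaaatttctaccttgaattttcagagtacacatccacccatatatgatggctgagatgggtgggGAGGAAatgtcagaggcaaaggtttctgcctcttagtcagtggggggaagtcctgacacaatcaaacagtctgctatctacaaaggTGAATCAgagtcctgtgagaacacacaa
Ms4a4c: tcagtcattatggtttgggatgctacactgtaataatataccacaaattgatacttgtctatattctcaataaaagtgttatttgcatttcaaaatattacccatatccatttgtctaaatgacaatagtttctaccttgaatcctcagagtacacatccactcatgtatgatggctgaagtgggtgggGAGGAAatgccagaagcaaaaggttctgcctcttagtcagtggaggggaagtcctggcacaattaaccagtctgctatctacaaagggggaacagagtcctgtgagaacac
These windows are 77.9% identical over 289 aligned bases. Of all windows, 28.3% hold the PU.1 core, 13.6% the TATA box letters and 7.81% the AP-1 site on either strand, and no searched letters overlap each other in these windows.

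Ms4a7 is shown as a macrophage gene that stood higher in sHA-X (chr19:11336097-11336396, minus strand, printed 5′ to 3′ along the gene). Capitals mark the interferon element read on the opposite strand, at -71, and the PU.1 core at 44.
Ms4a7: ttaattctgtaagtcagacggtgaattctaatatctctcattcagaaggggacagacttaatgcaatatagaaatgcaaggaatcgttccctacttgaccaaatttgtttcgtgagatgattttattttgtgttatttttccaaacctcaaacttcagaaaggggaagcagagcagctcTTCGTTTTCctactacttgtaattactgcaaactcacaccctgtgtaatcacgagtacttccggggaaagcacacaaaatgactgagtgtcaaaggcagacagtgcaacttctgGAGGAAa
The other Ms4a7 window holds the interferon element and the AP-1 site, the Ms4a8a window holds the AP-1 site, and the Ms4a4a window holds none of the 5 elements searched. The remaining one, the C/EBP half-site pair TTGCNNAA, is in 10.8% of all windows and in 0 of the 7 genes. A match of letters is a description and not a bound site. In all, 3 of the 7 genes held the PU.1 core, 3 the AP-1 site and 3 the interferon element, and these 3 groups include genes that stood higher and genes that stood lower in sHA-X.

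Ms4a6d, a macrophage gene whose protein forms a complex with the complement receptor Vsig4 in mouse, had the widest difference among the 8 (NCBI gene 68774, chr19:11586606-11604804). In the sHA-X libraries, in the order of their numbers, its level was 37.1, 26.2, 33.0 and 41.3 FPKM, against 5.58, 5.43 and 7.11 FPKM in the PBS libraries. The lowest sHA-X library was 3.68 times the highest PBS library. The means were 34.4 ± 6.42 FPKM in sHA-X and 6.04 ± 0.93 FPKM in PBS, a log2(FPKM + 1) difference of 2.32 (SE 0.16). These values rest on 1065 to 2110 reads in sHA-X and 238 to 326 reads in PBS. The sHA-X libraries also spread more widely for this gene than for Ms4a7 or Ms4a6c, with replicate 2 lowest and replicate 4 highest.

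Ms4a7, a marker of tissue macrophages, including those at the borders of the brain, was 18.6, 17.2, 16.2 and 19.8 FPKM in sHA-X and 7.79, 5.71 and 8.15 FPKM in PBS (NCBI gene 109225, chr19:11321039-11336146). The means were 17.9 ± 1.55 FPKM in sHA-X and 7.22 ± 1.32 FPKM in PBS, a log2(FPKM + 1) difference of 1.21 (SE 0.12). The 4 sHA-X libraries were close to each other, and the lowest was 1.99 times the highest PBS library. Ms4a4a, a macrophage surface protein that associates with the fungal sugar receptor dectin-1, was 13.01, 10.6, 11.6 and 15.0 FPKM in sHA-X and 6.51, 5.76 and 6.44 FPKM in PBS (NCBI gene 666907, chr19:11375488-11392915). Its means were 12.6 ± 1.89 FPKM in sHA-X and 6.24 ± 0.42 FPKM in PBS, a difference of 0.90 (SE 0.11). Again no sHA-X library fell into the PBS range.

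Ms4a8a, described in alternatively activated macrophages, was the lowest of the 8 genes in both groups (NCBI gene 64381, chr19:11067471-11081103). It was 3.65, 5.70, 3.15 and 4.36 FPKM in sHA-X and 2.99, 2.28 and 3.45 FPKM in PBS. The groups overlapped, since sHA-X replicate 3 lay below PBS replicate 3. The means were 4.22 ± 1.11 FPKM in sHA-X and 2.91 ± 0.59 FPKM in PBS, a log2(FPKM + 1) difference of 0.40 (SE 0.17), from 114 to 183 reads in sHA-X and 79 to 125 reads in PBS.

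Most genes of the red pulp macrophage list moved with these 4 genes. Of 22 tested genes of that list 18 rose and 4 did not pass by limma (adjusted p under 0.05 over all genes), with a median difference of 0.67 on the log2(FPKM + 1) scale beside 0.03 for all tested genes. Among those that did not pass, Csf1r and Siglec1 (0.19) leaned higher, and Marco (-0.21) and Timd4 (-0.33) leaned lower. Vsig4, counted as rising, passed the minimum mean only through the sHA-X libraries. Their summed level was 3706 to 3898 FPKM in sHA-X and 1924 to 2514 FPKM in PBS, and none was at 0. Cd5l, a scavenger protein of macrophages, was 232 ± 23.3 FPKM in sHA-X and 75.8 ± 5.69 FPKM in PBS (adjusted p = 8.3e-05 by limma), and Cd68, a protein of macrophage lysosomes, was 102 ± 5.16 FPKM in sHA-X and 55.1 ± 2.08 FPKM in PBS (adjusted p = 0.00025). The macrophage surface marker Adgre1 was 68.6 ± 9.59 FPKM in sHA-X and 46.4 ± 6.66 FPKM in PBS (adjusted p = 0.027 by limma), a call lost without sHA-X replicate 1, 3 or 4 or PBS replicate 1 or 2 (up to 0.097). Csf1r, the receptor for macrophage growth factor, was 151 ± 14.7 FPKM in sHA-X and 124 ± 19.8 FPKM in PBS and did not pass (adjusted p = 0.14 by limma).

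Set against these markers within each library, the 4 genes differed from each other. The ratio of Ms4a6d to Cd68 was 0.260 to 0.377 in sHA-X and 0.101 to 0.124 in PBS, its ratio to Adgre1 was 0.446 to 0.646 in sHA-X and 0.121 to 0.136 in PBS, and its ratio to Csf1r was 0.180 to 0.290 in sHA-X and 0.0428 to 0.0530 in PBS. The difference of Ms4a6d was thus wider than that of each of the 3 macrophage markers in these libraries. The ratio of Ms4a7 to Cd68 was 0.166 to 0.186 in sHA-X and 0.108 to 0.143 in PBS, also without overlap. The ratio of Ms4a4a to Cd68 overlapped, at 0.105 to 0.137 in sHA-X and 0.109 to 0.118 in PBS, while its ratios to Adgre1 and Csf1r did not. The ratios of Ms4a8a to all 3 markers overlapped. How far the number of macrophages accounts for these levels was not tested.

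**Figure D2:**
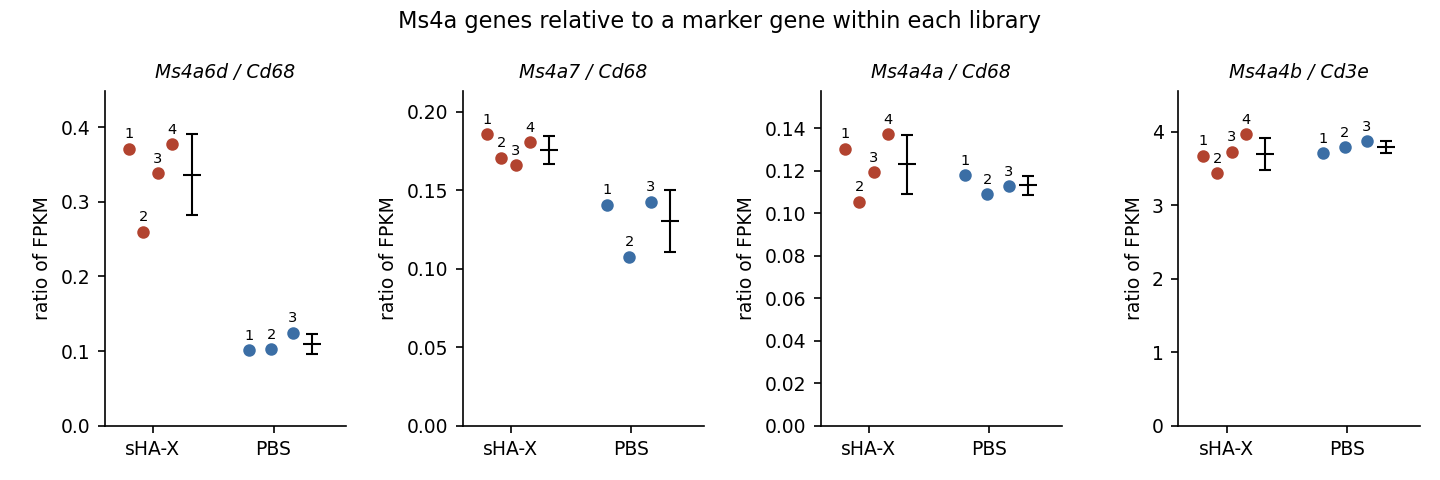
Ratio of the FPKM of an Ms4a gene to that of a marker gene within each library (vertical axes, starting at 0), for Ms4a6d, Ms4a7 and Ms4a4a over the macrophage gene Cd68 and for Ms4a4b over the T cell gene Cd3e, in sHA-X (red, left) and PBS (blue, right) with the mean ± SD. The groups stand apart for Ms4a6d and Ms4a7 and overlap for Ms4a4a and for Ms4a4b.

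Genes of the response to interleukin 4 and of alternative activation, the macrophage state in which Ms4a8a was described, rose for 6 of 15 and did not pass for 9, with a median difference of 0.42 on the log2(FPKM + 1) scale beside 0.03 for all genes. The 6 were Ccl8, Mrc1, Fcgr2b, Retnla, Cd163 and Clec7a, and Mrc1 and Cd163 are in the red pulp list as well. The count was 3 without sHA-X replicate 3 and 2 without PBS replicate 1 or PBS replicate 2. Ccl8, a chemokine for monocytes, was 59.9 ± 25.6 FPKM in sHA-X and 0.501 ± 0.286 FPKM in PBS (adjusted p = 0.00066 by limma). Ccl8 passed the minimum mean only through the sHA-X libraries, so nothing is read from its call. Mrc1, the mannose receptor, was 62.3 ± 4.87 FPKM in sHA-X and 38.8 ± 4.89 FPKM in PBS (adjusted p = 0.0036 by limma).

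Ms4a6c and Ms4a4c, known from monocytes and other myeloid cells, went in opposite directions. Ms4a6c was 56.5, 54.1, 57.5 and 64.2 FPKM in sHA-X and 40.3, 38.2 and 46.0 FPKM in PBS (NCBI gene 73656, chr19:11469353-11487182). The means were 58.1 ± 4.34 FPKM in sHA-X and 41.5 ± 4.03 FPKM in PBS, a log2(FPKM + 1) difference of 0.48 (SE 0.08). All sHA-X libraries lay above the PBS range, the lowest at 1.18 times the highest PBS library. Ms4a4c, a gene that responds to interferon, was 32.7, 31.1, 34.6 and 31.5 FPKM in sHA-X and 37.6, 35.2 and 42.7 FPKM in PBS (NCBI gene 64380, chr19:11404717-11427246). Its means were 32.5 ± 1.57 FPKM in sHA-X and 38.5 ± 3.79 FPKM in PBS, a difference of -0.23 (SE 0.07). The groups did not overlap, but sHA-X replicate 3 and PBS replicate 2 were close.

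Among 15 monocyte genes 6 rose, 2 fell and 7 did not pass, with a median difference of 0.33 on the log2(FPKM + 1) scale and a summed level of 2740 to 3094 FPKM in sHA-X and 2627 to 3045 FPKM in PBS, and none was at 0. Fcgr4, an antibody receptor of monocytes and macrophages, was 62.3 ± 15.7 FPKM in sHA-X and 21.3 ± 2.15 FPKM in PBS (adjusted p = 0.0033 by limma), and the transcription factor gene Cebpb was 37.9 ± 3.9 FPKM in sHA-X and 23.1 ± 1.72 FPKM in PBS (adjusted p = 0.0026). The 2 that fell were Plac8 and Nr4a1, and 1 fell without sHA-X replicate 1, 3 or 4 or PBS replicate 1 or 3. Ly6c2, which marks inflammatory monocytes, was 149 ± 25.2 FPKM in sHA-X and 105 ± 1.68 FPKM in PBS (adjusted p = 0.034 by limma), a call lost in each fit with 1 library left out except that without sHA-X replicate 2 (up to 0.12). The chemokine receptor gene Ccr2 was 12.8 ± 1.06 FPKM in sHA-X and 12.1 ± 1.25 FPKM in PBS (adjusted p = 0.65 by limma). Relative to Ly6c2 within each library, Ms4a6c overlapped between the groups, at 0.322 to 0.473 in sHA-X and 0.364 to 0.431 in PBS, and Ms4a4c stood lower, at 0.194 to 0.257 in sHA-X and 0.336 to 0.400 in PBS. Relative to the T cell gene Cd3e, Ms4a4c overlapped, at 1.12 to 1.48 in sHA-X and 1.21 to 1.29 in PBS. It also overlapped relative to the T cell genes Cd4 and Cd8a, while Ms4a6c did not overlap relative to any of them. Which cells the level of Ms4a4c came from was not tested.

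Interferon-stimulated genes were mixed. Of 16 tested genes 3 rose (among them Ifi204), 2 fell (Ifi203 and Ifi209) and 11 did not pass, with 5 rising without sHA-X replicate 2. Ifi204, an interferon-induced DNA sensor, was 34.4 ± 4 FPKM in sHA-X and 17.2 ± 1.76 FPKM in PBS (adjusted p = 0.0013 by limma). Its relative Ifi203 was 44.2 ± 2.88 FPKM in sHA-X and 59.1 ± 2.25 FPKM in PBS (adjusted p = 0.0056 by limma). The summed level of the list overlapped, at 539 to 797 FPKM in sHA-X and 484 to 763 FPKM in PBS.

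The lymphocyte genes Ms4a4b and Ms4a6b had the highest levels of the 8. Ms4a4b, which restrains the proliferation of mouse T cells, was 81.0, 95.7, 90.3 and 109.6 FPKM in sHA-X and 108, 111 and 135 FPKM in PBS (NCBI gene 60361, chr19:11443558-11463549). The means were 94.1 ± 11.9 FPKM in sHA-X and 118 ± 14.7 FPKM in PBS, a log2(FPKM + 1) difference of -0.32 (SE 0.11). Only sHA-X replicate 4 reached into the PBS range. Ms4a6b, whose protein associates with the receptor GITR on mouse T cells, was 69.6, 68.8, 69.8 and 82.0 FPKM in sHA-X and 76.7, 72.0 and 85.9 FPKM in PBS (NCBI gene 69774, chr19:11518559-11530403). Its means were 72.5 ± 6.31 FPKM in sHA-X and 78.2 ± 7.06 FPKM in PBS, a difference of -0.11 (SE 0.09). Here 3 of the 4 sHA-X libraries lay below the PBS range and replicate 4 lay within it.

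Most T cell genes leaned the same way as Ms4a4b, but few passed. Of the list, Foxp3 (a log2(FPKM + 1) difference of 0.39, adjusted p = 0.077 by limma) and Tnfrsf18 (0.11) leaned higher without passing. Of 17 tested T cell genes 3 fell and 14 did not pass, with a median difference of -0.27 on the log2(FPKM + 1) scale and a summed level of 342 to 428 FPKM in sHA-X and 422 to 556 FPKM in PBS, and none was at 0. The transcription factor gene Lef1 fell to 8.59 ± 0.86 FPKM in sHA-X, against 14.99 ± 3.12 FPKM in PBS (adjusted p = 0.0099 by limma). The homing receptor gene Ccr7 (adjusted p = 0.029 by limma) and the coreceptor gene Cd8a (adjusted p = 0.040) were also called lower, each with its call lost in 5 of the 7 fits without 1 library (up to 0.084 and 0.10). Only 1 gene fell without sHA-X replicate 1, 2 or 4 or PBS replicate 1. The T cell receptor subunit gene Cd3e was 25.4 ± 2.80 FPKM in sHA-X and 31.1 ± 3.27 FPKM in PBS (adjusted p = 0.099 by limma). The ratio of Ms4a4b to Cd3e overlapped between the groups, at 3.43 to 3.96 in sHA-X and 3.71 to 3.87 in PBS. The ratio of Ms4a6b to Cd3e overlapped as well, at 2.47 to 3.15 in sHA-X and 2.46 to 2.63 in PBS, while its ratio to Cd8a was higher without overlap, at 3.21 to 3.59 in sHA-X and 2.38 to 2.90 in PBS. Of 9 natural killer cell genes 0 rose and 0 fell by limma (1 higher and 2 lower at an unadjusted p under 0.05, and 0 by voom), and 1 fell without sHA-X replicate 3 or PBS replicate 2. The part of T cell numbers in the levels of Ms4a4b and Ms4a6b was not tested.

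The close copies on chromosome 19 did not keep a fixed ratio. Ms4a6c stood at 0.784 to 0.824 of Ms4a6b in sHA-X and at 0.526 to 0.535 in PBS, and within each group the libraries were close to each other. Ms4a6d stood at 0.381 to 0.533 of Ms4a6b in sHA-X and at 0.0727 to 0.0827 in PBS. For the most similar pair, Ms4a4b over Ms4a4c, the ratio overlapped at 2.48 to 3.48 in sHA-X and 2.88 to 3.16 in PBS. Ms4a4a, 68.2% identical to Ms4a4c in its coding sequence, stood at 0.336 to 0.476 of Ms4a4c in sHA-X and at 0.151 to 0.173 in PBS. How well copies can be told apart by reads bears on these ratios. Of the 50-base stretches of the main transcript, 11.3% in Ms4a6c, 8.48% in Ms4a4c, 5.89% in Ms4a6b, 4.19% in Ms4a4b and 2.92% in Ms4a6d also occur in transcripts of other genes, and 0 do in Ms4a4a, Ms4a7 and Ms4a8a. Genes annotated on the opposite strand overlap Ms4a4c (a pseudogene), Ms4a6b (an antisense gene) and Ms4a6c (a noncoding transcript). The sources used here do not say whether reads kept their strand, so such reads cannot be told apart and these 3 levels are uncertain to that extent.

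**Figure D3:**
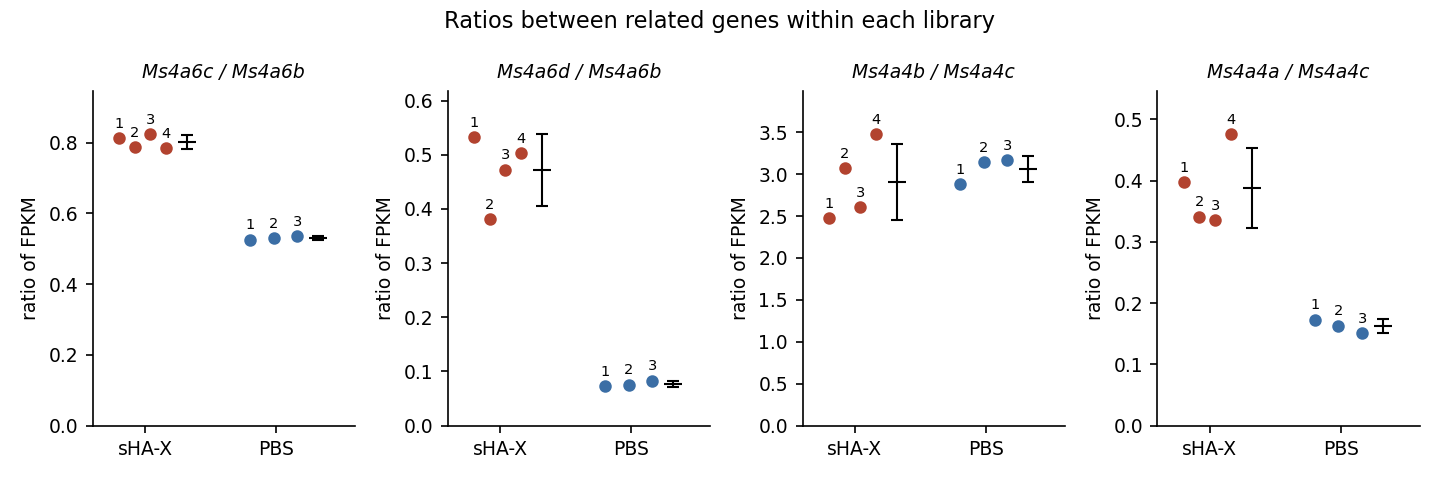
Ratio of the FPKM of related genes within each library (vertical axes, starting at 0) for Ms4a6c over Ms4a6b, Ms4a6d over Ms4a6b, Ms4a4b over Ms4a4c and Ms4a4a over Ms4a4c, in sHA-X (red, left) and PBS (blue, right) with the mean ± SD. The Ms4a6c ratio is 0.784 to 0.824 in sHA-X and 0.526 to 0.535 in PBS, and the Ms4a4b over Ms4a4c ratio overlaps.

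Over the 7 libraries, likeness in sequence and likeness in pattern did not always go together. Profiles on the log2(FPKM + 1) scale, each centred on its own mean, were compared by their root mean square difference. It was 0.156 for the pair Ms4a4b and Ms4a4c, 0.290 for Ms4a6b and Ms4a6c and 1.21 for Ms4a6b and Ms4a6d. The smallest values among the 8 genes were 0.120 for Ms4a4c and Ms4a6b and 0.136 for Ms4a4b and Ms4a6b, pairs with 58.7% and 57.5% coding identity. Ms4a4a and Ms4a7, with 57.7%, differed by 0.195. The lymphocyte genes and Ms4a4c thus had profiles near each other. The nearest of the other 7 genes to Ms4a6d was Ms4a7, at 0.571.

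Among the 8 genes, the make-up shifted more than the sum, which leaves out Ms4a1 and the other family rows. The summed level of the 8 genes was 312, 309, 316 and 368 FPKM in sHA-X and 286, 275 and 335 FPKM in PBS, and these overlapped. Ms4a6d made up 11.9, 8.46, 10.4 and 11.2% of the sum in sHA-X and 1.95, 1.97 and 2.12% in PBS. Ms4a6d, Ms4a7 and Ms4a4a together made up 17.5 to 22.0% in sHA-X and 6.14 to 6.96% in PBS, and Ms4a4b made up 26.0 to 30.9% in sHA-X and 37.9 to 40.3% in PBS. In sHA-X the order of mean levels was Ms4a4b, Ms4a6b, Ms4a6c, Ms4a6d, Ms4a4c, Ms4a7, Ms4a4a and Ms4a8a. There the ranges of Ms4a4b and Ms4a6b overlapped, as did those of Ms4a6d and Ms4a4c. In PBS the order was Ms4a4b, Ms4a6b, Ms4a6c, Ms4a4c, Ms4a7, Ms4a4a, Ms4a6d and Ms4a8a, and there Ms4a6c overlapped with Ms4a4c, and the next 3 genes with each other. Ms4a6d thus stood above Ms4a4c, Ms4a7 and Ms4a4a by its mean in sHA-X and below all 3 in PBS.

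**Figure D4:**
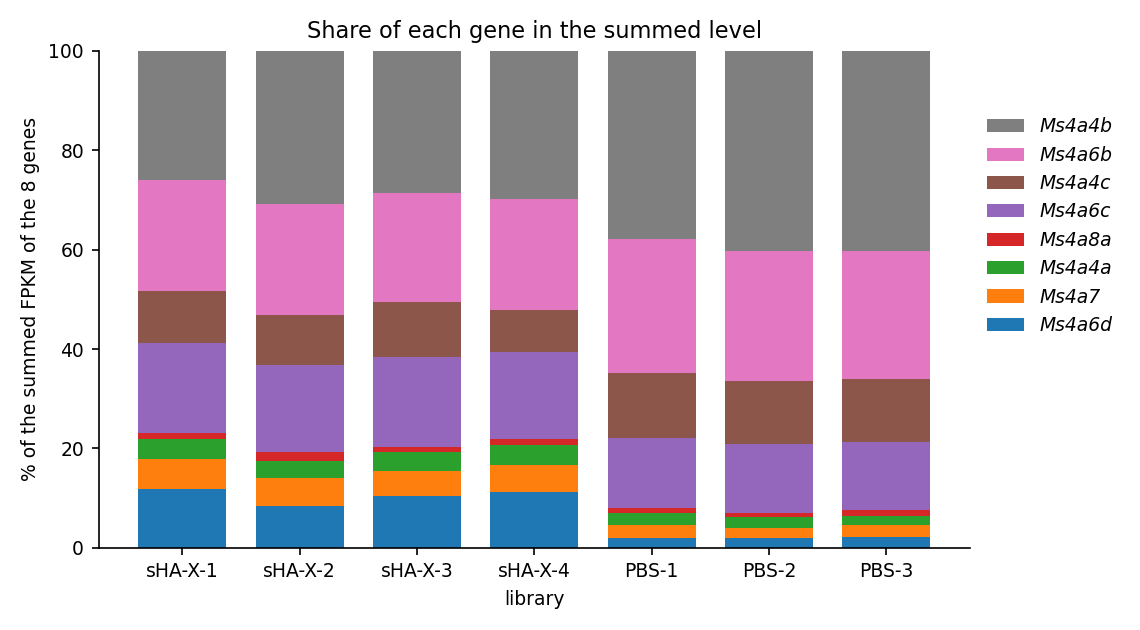
Share of each of the 8 Ms4a genes in their summed FPKM (vertical axis, percent) in each library, with the 4 sHA-X libraries left of the 3 PBS libraries. Ms4a6d, at the bottom of each bar, takes 8.46 to 11.9% in sHA-X and 1.95 to 2.12% in PBS, while Ms4a4b, at the top, takes the largest share in every library.

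The rest of the family was tested over the whole table. Of the 13 other Ms4a rows and the related genes Tmem176a and Tmem176b, 5 passed the minimum mean, of which 1 rose, 1 fell and 3 did not pass. Ms4a4d, a close relative of Ms4a4c (86.1% coding identity), was 23.4, 21.8, 21.1 and 21.5 FPKM in sHA-X and 13.5, 11.3 and 13.7 FPKM in PBS. Its means were 21.9 ± 0.996 FPKM in sHA-X and 12.8 ± 1.30 FPKM in PBS, a log2(FPKM + 1) difference of 0.73 (SE 0.08, adjusted p = 0.00097 by limma). It thus stood higher where Ms4a4c stood lower. Ms4a1 (CD20), the B cell member, was 199, 209, 201 and 197 FPKM in sHA-X and 302, 284 and 328 FPKM in PBS, a difference of -0.59 (SE 0.06, adjusted p = 0.0012 by limma). Both calls held in 15 of 15 alternatives. Ms4a1 moved with the other B cell genes, of which it is one: of 11 tested, 8 fell and 3 did not pass, with a summed level of 1258 to 1445 FPKM in sHA-X and 1845 to 2209 FPKM in PBS, and none at 0.

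Ms4a3, a gene of granulocyte and monocyte progenitors, was 10.1, 12.4, 12.0 and 18.7 FPKM in sHA-X and 8.01, 7.16 and 4.06 FPKM in PBS. The groups did not overlap, but the libraries spread widely and the difference of 0.96 (SE 0.27) did not pass (adjusted p = 0.064 by limma). With voom on recovered reads it passed (adjusted p = 0.049). Tmem176a was 108 ± 9.21 FPKM in sHA-X and 87.8 ± 14.5 FPKM in PBS (adjusted p = 0.11 by limma), and Tmem176b was 123 ± 5.59 FPKM in sHA-X and 102 ± 16.7 FPKM in PBS (adjusted p = 0.10). Without PBS replicate 3 both passed (adjusted p = 0.018 and 0.0098 by limma).

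The remaining 10 Ms4a rows were under the minimum mean and were not tested. Ms4a14 was 0.683, 0.470, 0.611 and 0.675 FPKM in sHA-X and 0.314, 0.281 and 0.222 FPKM in PBS, from 33 to 112 reads, and the groups did not overlap. Ms4a2, the IgE receptor beta chain, was 0.817 ± 0.229 FPKM in sHA-X and 0.969 ± 0.171 FPKM in PBS, and the groups overlapped. Of 7 tested mast cell genes 6 rose and 1 did not pass. Among those that rose, the mast cell protease gene Tpsb2 was 2.28 ± 0.50 FPKM in sHA-X and 0.107 ± 0.019 FPKM in PBS (adjusted p = 0.00040 by limma). Its level in PBS was low, and it passed the minimum mean only through the sHA-X libraries. The same held for Mcpt4, which also rose, at 3.40 FPKM in sHA-X and 0.518 FPKM in PBS by the means. Nothing is read from these calls. Ms4a10 and Ms4a12 had at most 1 read in any library. Ms4a5, Ms4a13, Ms4a15, Ms4a18, Ms4a19 and Ms4a20 had 0 reads in all 7 libraries, which by counting error alone allows up to 3 reads in a library. Gm8369, which lies between Ms4a6c and Ms4a6b, was left out of these family counts by its symbol. It was 9.38 ± 1.12 FPKM in sHA-X and 13.5 ± 1.82 FPKM in PBS, a difference of -0.48 (adjusted p = 0.025 by limma). That call was lost without sHA-X replicate 1 or 3 or PBS replicate 2 or 3 (adjusted p up to 0.067 by limma).

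**Figure D5:**
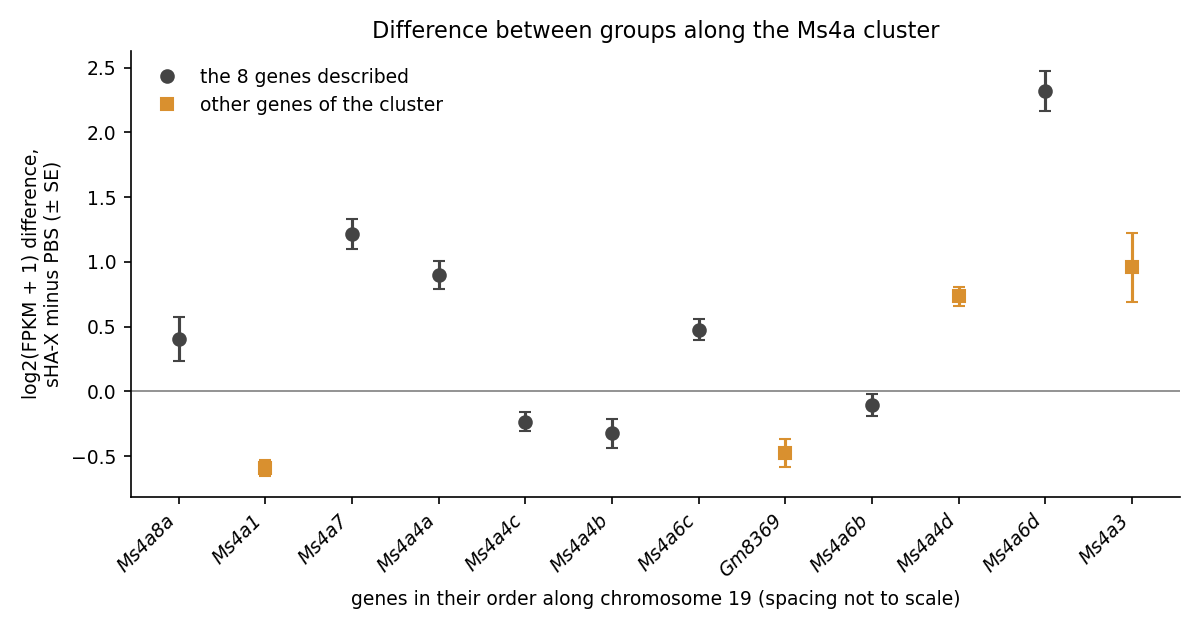
Difference in log2(FPKM + 1), sHA-X minus PBS, with its standard error (vertical axis) for the tested genes of the Ms4a cluster in their order along chromosome 19 (horizontal axis, spacing not to scale). The order along the chromosome holds genes of both directions, with Ms4a6d at 2.32 and Ms4a6b at -0.11.

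Genes of proteins reported to work with the family were also followed, from a list of 7 in which 4 rose and 3 did not pass, with a median of 0.65 on the log2(FPKM + 1) scale. The count was 2 without sHA-X replicate 2 or 3 or PBS replicate 1 or 2. Vsig4, the partner of Ms4a6d, was 1.99, 2.87, 4.27 and 7.82 FPKM in sHA-X and 0.585, 0.480 and 0.563 FPKM in PBS. Its sHA-X libraries spread widely (4.24 ± 2.57 FPKM), and the call (adjusted p = 0.029 by limma) was lost without sHA-X replicate 2 or 3 or any PBS library (up to 0.10). Trem2, a lipid receptor of macrophages that has been linked to the human MS4A genes, was 4.15, 2.15, 3.86 and 2.99 FPKM in sHA-X and 0.434, 0.546 and 0.522 FPKM in PBS, a difference of 1.49 (SE 0.16, adjusted p = 0.0013 by limma). Every sHA-X library lay above every PBS library for both genes. Their PBS means were under the minimum mean of 1 FPKM (0.543 FPKM for Vsig4 and 0.500 FPKM for Trem2). Both passed it only through the sHA-X libraries, so nothing is read from their calls or their lack of overlap.

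Clec7a (dectin-1), the partner of Ms4a4a, was 20.5, 28.2, 27.4 and 38.9 FPKM in sHA-X and 15.0, 15.5 and 18.2 FPKM in PBS. Its call (adjusted p = 0.047 by limma) was lost without sHA-X replicate 2 or 3 or any PBS library (up to 0.16). Fcer1g, the signalling chain shared by Fc receptors, was 223 ± 5.87 FPKM in sHA-X and 142 ± 18.7 FPKM in PBS (adjusted p = 0.0026 by limma). Tnfrsf18, which encodes GITR, the receptor reported with Ms4a4b and Ms4a6b, was 13.8 ± 2.22 FPKM in sHA-X and 12.6 ± 1.46 FPKM in PBS (adjusted p = 0.59 by limma). The signalling adaptor gene Tyrobp leaned higher (0.28, adjusted p = 0.060 by limma) and the kinase gene Syk leaned lower (-0.20, adjusted p = 0.16), and neither passed. All but Tnfrsf18 are expressed by macrophages, and the part of macrophage numbers in their levels was not tested. Vsig4 is counted in the red pulp list as well, and Clec7a in the interleukin 4 list.

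The genes with the profiles nearest to 4 of the Ms4a genes were listed for those that varied enough over the 7 libraries (an SD of at least 0.3 on the log2 scale), by the root mean square difference of centred profiles. Both groups are in these profiles, so a shared difference between groups is enough to bring genes together. Nearest to Ms4a6d were Apod (0.193), which encodes a lipid carrier, the carbonyl reductase gene Cbr2 (0.210) and the chemokine gene Ccl12 (0.236). For Ms4a7 they were Cygb (0.0617), which encodes cytoglobin, Kdelr3 (0.0891) and the complement gene C4b (0.106). For Ms4a4a they were the lectin gene Lgals1 (0.0937), the RNA sensor gene Tlr8 (0.0964) and Emp1 (0.0999), and for Ms4a8a they were Tox2 (0.0449), Pvrig (0.0608) and Hyou1 (0.0818). Ccl12 was 6.01 ± 1.55 FPKM in sHA-X and 0.519 ± 0.181 FPKM in PBS, and Tlr8 was 14.6 ± 0.74 FPKM in sHA-X and 7.25 ± 0.76 FPKM in PBS.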

How the data were processed

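The deposited table holds 1 value per gene and library. Its header names no unit, and the deposited values were taken as FPKM computed by the authors, since those of a gene are whole multiples of a step (every gene above 0 in 2 or more libraries, 16889 in all, within 0.02 of a read). Per the labels' protocols, RNA was isolated with TRIzol and turned into libraries with a VAHTS Universal V6 kit. The submitters' processing notes list mm10 and the tools HISAT2, fastp, DESeq2, HTSeq and R 3.2.0, and give no roles.

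Values were tested as log2(FPKM + 1), on which scale differences of low genes are understated, with limma 3.58.1 (trend and robust) in R 4.3.3, comparing sHA-X with PBS with no other term. A minimum mean of 1 FPKM removed 10253 genes and kept 11920. The Benjamini-Hochberg adjustment ran over all tested genes, and calls were made at an adjusted p under 0.05. A test on counts was not the main one, since the table is not counts. The fit was tested on simulated data. The 8 genes, the 15 gene lists and the tests were chosen with earlier results of these data known. The genes named were the 8, every other Ms4a row with Tmem176a and Tmem176b, up to 3 called genes of each list with the smallest p, a fixed set of defining genes, the partner list and the 3 nearest profiles. Genes named beyond these, such as Gm8369 and called list members, were chosen after their values were seen. Some genes of the lists are not reported here by name. In the lists, dendritic cell genes were also followed: 2 of 8 conventional ones fell (Clec9a and Xcr1), and of 6 plasmacytoid ones 2 fell (Siglech and Ccr9) and 1 rose (Bst2). The call of Xcr1 was lost without sHA-X replicate 1, 2 or 3 or PBS replicate 2 (adjusted p up to 0.058 by limma) and that of Bst2 without sHA-X replicate 1 or PBS replicate 1 or 2 (up to 0.094). Of 11 neutrophil genes 1 rose (Cxcr2), and 5 were higher and 0 lower at an unadjusted p under 0.05 by limma. Their median difference was 0.52, and their summed level was 3369 to 5328 FPKM in sHA-X and 1950 to 3319 FPKM in PBS. Of the tested hepatocyte, acinar and muscle genes, 0 of 7, 0 of 9 and 0 of 7 passed by limma. At an unadjusted p under 0.05 it was 0 of each, and 0 by voom, and 1 muscle gene fell without sHA-X replicate 2.

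Alternatives were another pseudocount (0.1 FPKM), other filters, median-ratio and quantile scaling, limma's voom on recovered reads, a replicate block and fits with libraries left out, 15 in all. Gene coordinates come from RefSeq on GRCm38, matched by NCBI gene identifier, and transcripts are those of GENCODE on the same build. Promoters are RefSeq's, and coding sequences were aligned with Biopython 1.88. The number of reads behind a value covers counting error only.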

Additional observations from a re-analysis of the deposited data

Results flagged for a closer look

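In 4 cases 1 of the 4 sHA-X libraries stood far from the other 3, by the gap to the nearest library as a share of the group's range (Dixon's test at the 95% level). Such gaps also arise by chance in about 5% of groups. Ms4a6b was 81.98 FPKM in sHA-X replicate 4 (gap over range 0.923), where the other 3 lay between 68.8 and 69.8 FPKM, and that library also held the highest levels of Ms4a6d, Ms4a7, Ms4a4a, Ms4a6c and Ms4a4b in its group. The monocyte gene F13a1 was 14.93 FPKM in replicate 1 (0.839). Csf1r was 173.1 FPKM in replicate 1 (0.892). The muscle gene Mylpf was 32.5 FPKM in replicate 2 (0.905), the library with the highest sum of muscle genes.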

How the results depend on the processing

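For each of the 8 genes the sign of the difference was the same in 15 of 15 alternatives, with a range of 2.23 to 2.50 on the log2 scale for Ms4a6d, 1.08 to 1.33 for Ms4a7, 0.81 to 1.01 for Ms4a4a, 0.42 to 0.55 for Ms4a6c, 0.16 to 0.51 for Ms4a8a, -0.29 to -0.16 for Ms4a4c, -0.40 to -0.22 for Ms4a4b and -0.17 to -0.04 for Ms4a6b. Over all genes, 1108 were called higher and 600 lower. With 1 library left out, these were 488 to 1263 higher and 228 to 637 lower, in fits with fewer samples, and without both second libraries 492 higher and 330 lower. Without sHA-X replicates 3 and 4, also chosen after seeing the data, all genes called higher numbered 384 and all genes called lower 116, with 12 red pulp macrophage genes higher, 5 B cell genes lower, 0 T cell genes lower, 2 interleukin 4 genes higher, 1 interferon-stimulated gene higher and 1 lower, and 0 monocyte genes lower. Median-ratio scaling gave 1002 higher and 843 lower, and quantile normalization 758 higher and 938 lower. Replicate numbers did not pair the libraries (correlations of the deviations of libraries with the same number of 0.15, -0.214 and -0.286), and a replicate block gave 276 higher and 72 lower. Of the other family genes 2 were called, and 2 to 4 with 1 library left out. Signs turned for 3 genes that did not pass: with 1 library left out, the Nkg7 log2 difference ranged from -0.082 to 0.013 (turned without PBS replicate 3), the Cela1 log2 difference from -0.965 to 0.69 (turned without PBS replicate 2, and 0.77 without both second libraries) and the Mylpf log2 difference from -0.11 to 0.76 (turned without sHA-X replicate 2). The cause of these changes was not tested. The counts of list genes without single libraries were an addition made after seeing the data. Depth limits the genes with few reads.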
